A study of Mus musculus with 11 samples.

Results

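Interferon-stimulated genes are the genes that cells switch on when they sense an interferon, and 48 of them were followed here through 5 kinds of monocyte culture. They were taken by gene symbol from the 21860 genes of the expression table, and all 48 were found. Members had to reach 10 in 2 or more of the 11 samples, which 47 did and Ifit3b (0 to 4.55) did not. This minimum left 13095 genes in all for testing. The RNA came in bulk from CD11b-low EpCAM+ cells, sorted on day 6 from cultures of mouse bone marrow monocytes, and the question was how a Notch ligand and an aryl hydrocarbon receptor (Ahr) ligand act together on these Langerhans-like cells. GM-CSF (20 ng/ml) was present in every culture. To it the TGFβ/IL-34 group (n = 2) added TGFβ (5 ng/ml) plus IL-34 (8 µg/ml). The TGFβ/IL-34/FICZ group (n = 2) had FICZ in addition, a small molecule that the study describes as an Ahr agonist, while the deposited design text calls it an antagonist. Its dose is not given in the sources used here. The TGFβ/IL-34/Jag1 group (n = 3) had the Notch ligand Jagged-1 instead, carried by the mouse stromal line OP9, and the TGFβ/IL-34/Jag1/FICZ group (n = 3) had both. A single Jag1 only sample had Jagged-1 and GM-CSF without TGFβ, IL-34 or FICZ. Below, "with FICZ", "with Jag1" and "with both" mean these additions to TGFβ/IL-34, values are the authors' normalised counts, and values of a group are listed from replicate 1 upward.

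Some features of the libraries bear on every result. Nothing states that replicates came from separate animals, so tests measure the spread between these samples, which may be technical. The sample descriptions carry 3 experiment codes, AA45, AA47 and AA48, and the 3 replicates of each Jag1 group have 1 code each. Totals were 21.3 M to 27.8 M normalised counts per sample, and low values put 1 read at 0.889 to 1.15 normalised counts, so that 0 allows up to 2.67 to 3.45 (3 reads, counting error only). Replicate 1 with FICZ stood apart: the median of 606 genes with transcripts under 1000 bases lay 1.07 log2 units above their mean over the 10 TGFβ/IL-34 samples, and that of 5192 genes over 4000 bases was at −0.52 on the same scale, against −0.22 to −0.04 and 0.00 to 0.12 in the other samples. It shared a second flow cell with replicate 1 with both. Cyp1a1, an Ahr-induced enzyme, was at 68.1 and 100.1 with TGFβ/IL-34, 2079 and 1933 with FICZ, 0, 0 and 0.985 with Jag1, 644, 671 and 604 with both and 3.02 in the Jag1 only sample. Nrarp, a Notch target, was at 57.3 and 58.9 with TGFβ/IL-34, 82.9 and 62.6 with FICZ, 78.5, 93.7 and 48.1 with Jag1, 159, 184 and 117 with both and 361 in the Jag1 only sample. The collagen gene Col1a1, a marker of stroma, was at 3.84 and 0 with TGFβ/IL-34, 0 and 0 with FICZ, 191, 369 and 84.1 with Jag1, 222, 625 and 1345 with both and 37.4 in the Jag1 only sample. The labels describe OP9 co-culture for all samples, but Col1a1 was near 0 in those without Jag1, and effects of Jag1 and of stroma cannot be told apart. The Langerhans cell marker Epcam was present throughout (658 to 14376.5).

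Interferons act in a relay. Type I interferon binds the IFNAR receptor, whose kinases JAK1 and TYK2 start a signal that reaches a complex holding STAT2 and IRF9, which binds the interferon-stimulated response element (ISRE). Interferon gamma binds another receptor and acts through the gamma-activated sequence (GAS), which drives the GTPases of the GBP and IRG families and IRF1 in particular. The products sense foreign RNA and DNA, degrade or trap viral RNA, block viral entry and budding, mark proteins with ISG15, or, as USP18 and SOCS1 do, damp the receptor. Myeloid cells keep many of these genes at a steady low level without infection.

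Promoter sequences show what these genes share apart from their name. A window from 250 bases before to 50 bases after the annotated start (GRCm39, GENCODE vM39) was searched on both strands for the ISRE core GAAANNGAAA, with overlapping matches allowed. Of the 48 promoters 25 held it (52.1%), against 821 of 21491 protein-coding promoters (3.82%). The GAS letters TTCNNNGAA were in 9 (18.8%, against 8.78%), and GCGTG, the core of the Ahr-binding element, in 11 (22.9%, against 37.2%). A match is a run of letters, not a site of binding. The whole windows of 4 members are shown because each fell in at least 1 comparison; they were chosen after the values were seen. The ISRE letters, on either strand, are in capitals, and each window runs 5′ to 3′ along its gene.
Zbp1 (chr2:173060675-173060974, minus strand): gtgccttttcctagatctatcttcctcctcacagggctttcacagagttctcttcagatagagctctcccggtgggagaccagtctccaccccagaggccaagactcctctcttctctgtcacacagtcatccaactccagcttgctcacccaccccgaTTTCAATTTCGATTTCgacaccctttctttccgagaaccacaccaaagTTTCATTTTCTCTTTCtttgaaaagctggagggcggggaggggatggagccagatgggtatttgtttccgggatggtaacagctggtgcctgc
Ifi204 (chr1:173594561-173594860, minus strand): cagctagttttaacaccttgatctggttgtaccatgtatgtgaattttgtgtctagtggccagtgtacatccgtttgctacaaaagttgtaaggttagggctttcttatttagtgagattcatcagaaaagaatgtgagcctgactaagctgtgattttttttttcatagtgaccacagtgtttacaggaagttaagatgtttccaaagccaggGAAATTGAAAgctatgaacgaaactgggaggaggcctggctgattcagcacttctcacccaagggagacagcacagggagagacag
Ifit3 (chr19:34560649-34560948, plus strand): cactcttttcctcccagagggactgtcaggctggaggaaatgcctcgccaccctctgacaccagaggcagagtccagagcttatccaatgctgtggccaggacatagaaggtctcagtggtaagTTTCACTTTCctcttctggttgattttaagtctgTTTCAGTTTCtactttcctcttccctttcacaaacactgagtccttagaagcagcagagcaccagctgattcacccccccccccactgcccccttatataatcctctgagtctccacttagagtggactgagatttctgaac
Oas1a (chr5:121045561-121045860, minus strand): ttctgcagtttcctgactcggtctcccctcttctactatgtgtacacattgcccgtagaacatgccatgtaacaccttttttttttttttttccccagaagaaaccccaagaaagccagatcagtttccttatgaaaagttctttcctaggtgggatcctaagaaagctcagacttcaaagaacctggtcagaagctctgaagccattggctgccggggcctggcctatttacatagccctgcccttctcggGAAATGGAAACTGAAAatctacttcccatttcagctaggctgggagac

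For the other 7 members that passed the test in a comparison and hold the core, the first run of ISRE letters is shown with up to 10 bases on either side, since some fell and some rose when FICZ was added to Jag1 cultures. Oas3, Isg15 and Rtp4 fell there, Usp18, Gbp2 and Gbp5 rose, and Ifi47 passed in another comparison.
Oas3 (chr5:120915780-120915809, minus strand, capitals from 70 bases before the start): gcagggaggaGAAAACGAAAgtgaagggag
Isg15 (chr4:156285322-156285363, minus strand, capitals from 50 bases before the start): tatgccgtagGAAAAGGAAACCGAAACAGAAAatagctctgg
Rtp4 (chr16:23428585-23428614, plus strand, capitals from 51 bases before the start): gtgcaccttgGAAACCGAAActtaaagaca
Usp18 (chr6:121222772-121222801, plus strand, capitals from 75 bases before the start): ggtgcctgagTTTCGCTTTCctttggatct
Gbp2 (chr3:142326355-142326384, plus strand, capitals from 16 bases after the start): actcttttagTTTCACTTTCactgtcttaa
Gbp5 (chr3:142202520-142202549, plus strand, capitals from 4 bases before the start): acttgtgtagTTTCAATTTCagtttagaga
Ifi47 (chr11:48977746-48977775, plus strand, capitals from 105 bases before the start): ttaaagtcctTTTCTTTTTCctggaaatgt
These members were shown because they hold the core. With FICZ added to Jag1 cultures, 6 of the 24 tested members with the core fell and 3 rose. Of the 23 without it, 4 fell and 1 rose. Over all genes tested, 6.71% were called lower and 10.9% higher in this comparison.

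Levels differed widely between members. Per kb of the canonical transcript, the mean over the 11 samples was highest for Bst2 (tetherin, which holds budding virus at the membrane) at 18016 normalised counts per kb and for Ifitm3, a membrane protein that blocks viral entry, at 5797. Gbp2 (1203) and Stat2 (1094) followed, and Gbp5, Ifi35 and Sp100 lay between 594 and 941. Lowest of the 47 were Cmpk2, a nucleotide kinase, at 4.68 and the RNA-binding proteins Ifit3 at 3.31 and Ifit1 at 2.04 normalised counts per kb. The coding sequences of Ifit3 and the dropped Ifit3b were 99.1% identical, so reads could be divided between them. Mx1 and Mx2 were identical at 86.7% of aligned coding bases and Ifi203 and Ifi204 at 73.3%, and the listed pairs of other families at 53.4% to 73.2%. Parp9 and Dtx3l overlap in the genome on opposite strands (chromosome 16, 35758840 to 35759521), and the strandedness of the reads is not given in the sources used here.

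**Figure D1:**
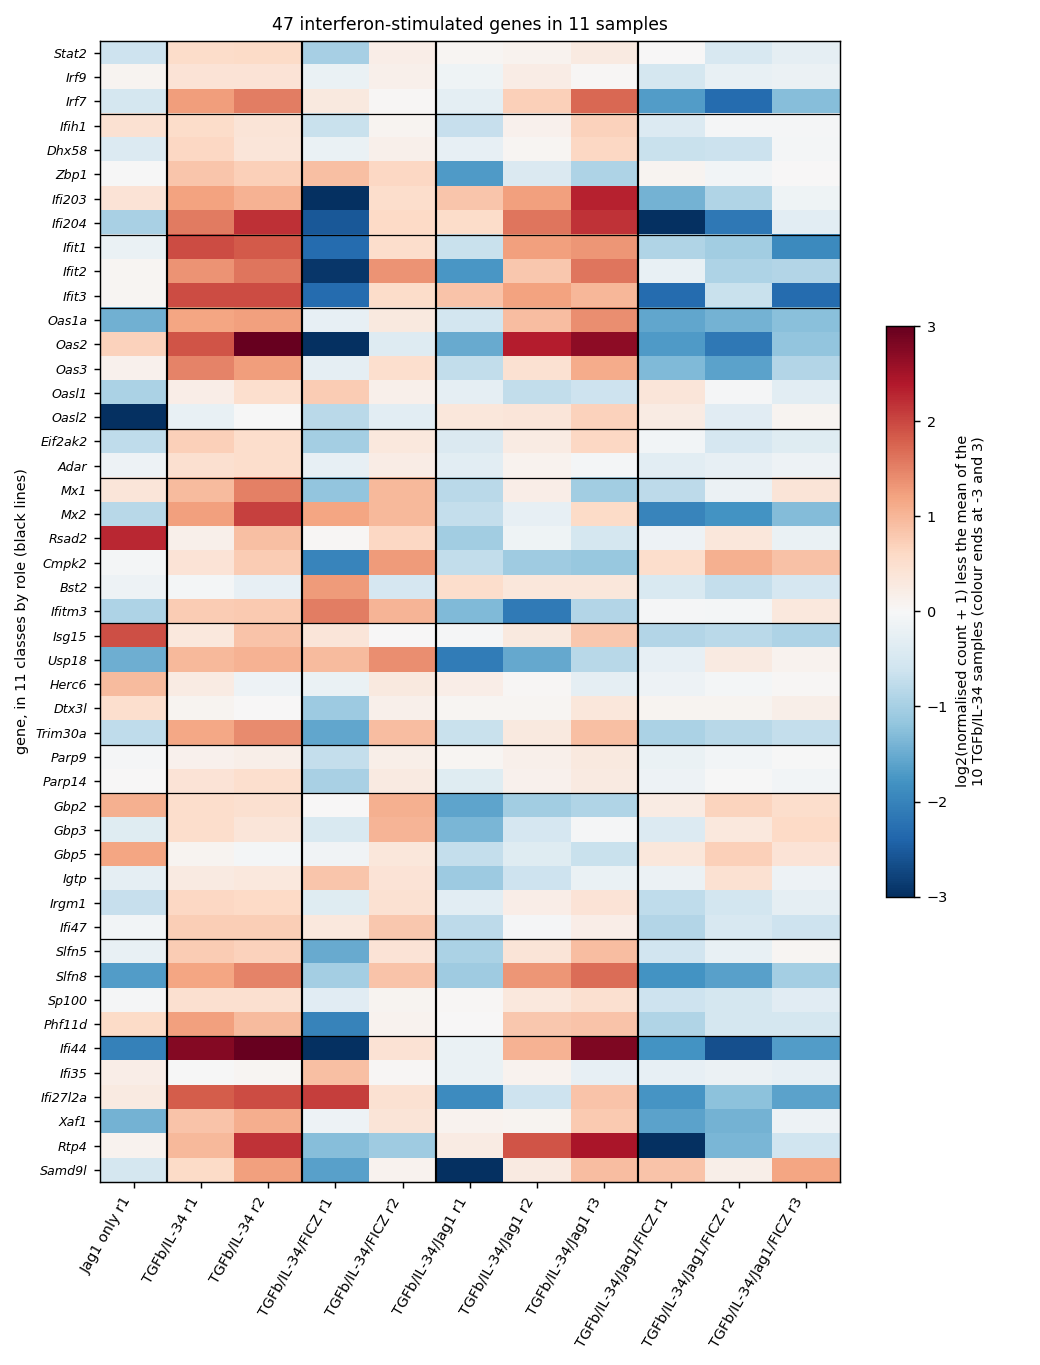
Heat map of the 47 genes (rows, in 11 classes by role) in 11 samples (columns), coloured by log2(normalised count + 1) less the gene's mean over the 10 TGFβ/IL-34 samples. Red is above and blue below that mean. Most rows are red in both TGFβ/IL-34 samples and blue in the 3 samples with both, while the GBP rows and Usp18 are bluest with Jag1.

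Samples were first taken singly. Each gene's log2(value + 1) was set against its own mean over the 10 samples with TGFβ and IL-34, and the mean of these differences over the 47 genes was taken per sample. It was highest in the TGFβ/IL-34 samples, at 0.81 and 0.96, where 44 and 43 of the 47 genes lay above their own mean. With both additions it was low in each sample, at −0.75, −0.57 and −0.38, with 38, 38 and 34 genes below. The other groups were split. With FICZ, replicate 1 was at −0.67 and replicate 2 at 0.41. With Jag1, the samples of AA45, AA47 and AA48 were at −0.58, 0.22 and 0.55. The Jag1 only sample was at −0.21. The median over all 13095 genes stayed between −0.02 and 0.02 in each of the 11 samples.

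Replicates of the Jag1 group differed more in these genes than in others. With Jag1, 41 of 47 members were higher in replicate 2 than in replicate 1 and 41 were higher in replicate 3 than in replicate 1 (median of replicate 1 less the other −0.56 and −0.86 log2 units), while 52.2% and 52.4% of all genes were. The median SD of the members' log2 values was 0.506 with Jag1 against 0.254 for all genes tested, 0.604 against 0.509 with FICZ, 0.273 against 0.173 with both and 0.126 against 0.115 with TGFβ/IL-34. Samd9l, a restriction factor of cytoplasmic virus, had the widest spread with Jag1, at 5.69, 102 and 161. Length moved with the odd library: in replicate 1 with FICZ the 6 members with transcripts under 1500 bases had a median of 1.08 and the other 41 one of −0.68, while replicate 2 had 0.07 and 0.40. The short-transcript member Bst2 was at 32538 and 9526 in those samples.

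**Figure D2:**
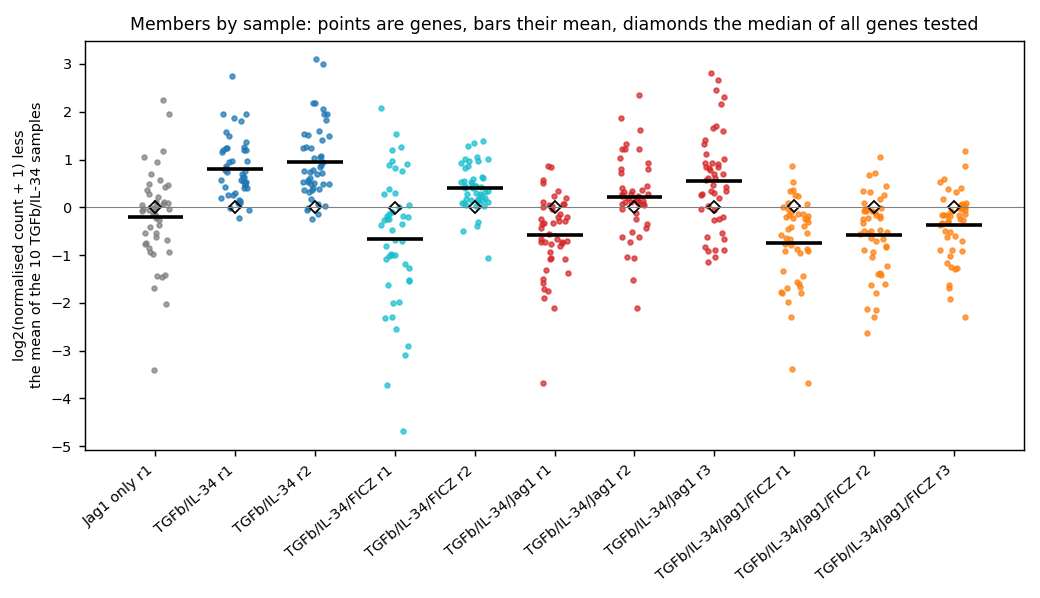
Each point is 1 of the 47 genes in 1 of 11 samples. The y axis is log2(normalised count + 1) less the gene's mean over the 10 TGFβ/IL-34 samples, black bars are means over the genes and open diamonds medians over all 13095 genes tested. Bars lie at 0.81 and 0.96 in TGFβ/IL-34 and between −0.75 and −0.38 with both additions, while diamonds stay near 0.

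The comparison of Jag1 with no addition showed lower levels of the receptor brake Usp18, of Ifitm3 and of the nucleic acid sensor Zbp1. Mx2 and the guanylate-binding protein Gbp2 were lower too. Usp18 fell from a mean of 1352 ± 47.02 (SD, n = 2) to one of 257 ± 114 (SD, n = 3), which was 5.60-fold (log2 fold change −2.48 with an SE of 0.333, adjusted p = 0.00198). Ifitm3 fell from a mean of 10583 ± 104 (SD, n = 2) to one of 2407 ± 954 (SD, n = 3) (log2 fold change −2.22 with an SE of 0.316, adjusted p = 0.0027). Zbp1 had a log2 fold change of −1.80 (adjusted p = 0.0142), Mx2 one of −1.77 (adjusted p = 0.0483) and Gbp2 one of −1.68 (adjusted p = 0.00936). These 5 of 47 members fell and none rose (limma, Benjamini-Hochberg adjustment over all genes), against 3.96% of all genes lower and 2.64% higher. Of all 47, 42 had a negative log2 fold change (50.4% of all genes), and the median was −0.65 against −0.0041 over all genes. Within experiments, 38 of 47 were lower in AA47 and 34 in AA48 (medians −0.44 and −0.29); by the authors' sample sheet, which moves 1 TGFβ/IL-34 sample from AA47 to AA45, 45 were lower in AA45. Groups did not overlap, with Jag1 lower, for 26 members (22.8% of all genes) and, with Jag1 higher, for 2 (23.7%), which were Oasl2 and Bst2. Ifitm3 and Usp18 kept their calls under all 15 alternatives tried, and Mx2 under 6. Leaving out either TGFβ/IL-34 sample leaves 1 in that group, and some calls did not hold there. Weighting samples by their fit (array weights) gave 18 members, when 2627 of 13095 genes were called against 864 in the main fit.

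FICZ added to Jag1 cultures lowered 10 members and raised 4. Irf7, the factor that amplifies interferon production, fell from a mean of 274 ± 179.6 (SD, n = 3) to one of 43.7 ± 15.3 (SD, n = 3) (log2 fold change −2.46 with an SE of 0.464, adjusted p = 0.00466), and Oas1a, a sensor that starts RNA decay, fell from a mean of 475 ± 271 (SD, n = 3) to one of 103 ± 11.1 (SD, n = 3) (log2 fold change −1.99 with an SE of 0.425, adjusted p = 0.00895). Ifi204, Rtp4, Ifit3, Mx2, Oas3, Xaf1, Isg15 and Sp100 fell too, with log2 fold changes of −3.50, −3.31, −2.78, −1.57, −1.55, −1.38, −1.23 and −0.78. In the other direction, Gbp2 rose from a mean of 1120.5 ± 268 (SD, n = 3) to one of 3476 ± 509 (SD, n = 3) (log2 fold change 1.65 with an SE of 0.273, adjusted p = 0.00223). Usp18 rose 2.88-fold (log2 fold change 1.52, adjusted p = 0.00564), Ifitm3 2.85-fold (1.51, adjusted p = 0.00451) and Gbp5 2.10-fold (1.07, adjusted p = 0.00225). These were 10 of 47 that fell (limma; 6.71% of all genes) and 4 that rose (10.9% of all genes, so the share of members that rose was not above it). The median over the members was −0.45 against −0.01 over all genes, and groups did not overlap for 20 members lower with both (21.5% of all genes) and 7 higher (23.6%). Irf7, Oas1a, Gbp2, Gbp5, Usp18 and Ifitm3 kept their calls under all 16 alternatives. The count was 9 and 7 without replicates 2 and 3 with Jag1, 6 and 7 without replicates 1 and 2 with both, and 27 with array weights. Calls among all genes were, in the same order, 1799, 1703, 1479, 1389 and 4123, against 2312 in the main fit.

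Within experiments the same comparison was not even. In AA45, 27 of 47 members were lower with both than with Jag1 (median difference −0.10), in AA47 36 (−0.61) and in AA48 33 (−0.73), while medians over all genes lay between −0.01 and 0.01. Irf7 and Gbp2 went the same way in each experiment, Irf7 at 117, 237 and 469.8 with Jag1 against 44.2, 28.1 and 58.8 with both, and Gbp2 at 819.7, 1208 and 1333.5 against 2935, 3946 and 3548.

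**Figure D3:**
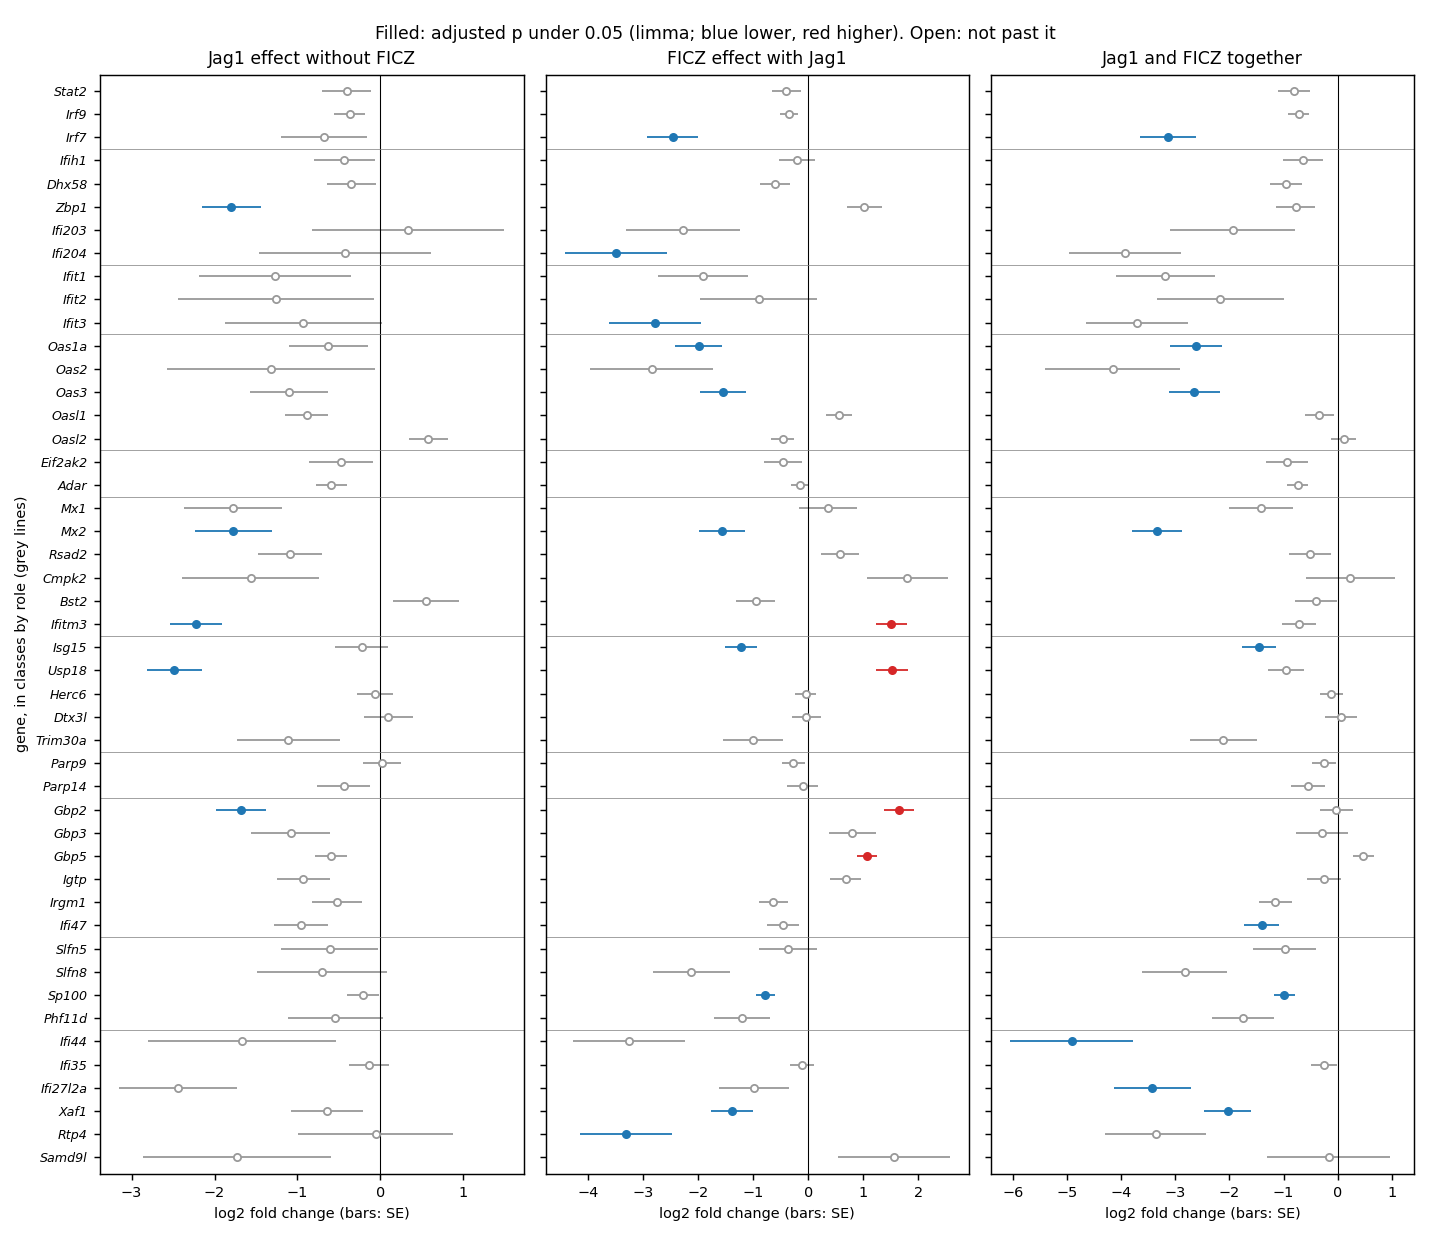
Log2 fold changes (x axes, bars are SE from limma) of the 47 genes in 3 comparisons. Filled points passed an adjusted p of 0.05, blue lower and red higher. With Jag1, 5 genes are filled, with FICZ added to Jag1 14, and with both against neither 10.

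Jag1 and FICZ together, set against TGFβ/IL-34 alone, lowered 10 members. Ifi44, an interferon-induced protein of the cytoplasm, fell from a mean of 195 ± 24.7 (SD, n = 2) to one of 5.73 ± 2.16 (SD, n = 3) (log2 fold change −4.92 with an SE of 1.13, adjusted p = 0.0392), and Mx2 fell from a mean of 198 ± 78 (SD, n = 2) to one of 18.3 ± 4.96 (SD, n = 3) (log2 fold change −3.34 with an SE of 0.460, adjusted p = 0.00493). Ifi27l2a, Irf7, Oas3, Oas1a, Xaf1, Isg15, Ifi47 and Sp100 fell with log2 fold changes of −3.42, −3.14, −2.65, −2.62, −2.03, −1.45, −1.40 and −0.99. Gbp2, which moved down with Jag1 and up when FICZ was added to it, had −0.03 here (adjusted p = 0.982). These 3 comparisons share samples. Of the members 10 fell (limma; 1.37% of all genes) and none rose (3.12%). The median was −0.96 against 0.01 over all genes. Groups did not overlap for 36 members lower with both (25.5% of all genes) and for 1 higher, Gbp5 (28.8%). In AA47 42 of 47 members were lower and in AA48 40, with medians of −1.01 and −0.89. The calls leaned on single samples, for all genes as well as for members. Without replicates 1 and 2 with both, 2 and 2 members passed. Calls among all genes were 191 and 182 in those fits, against 587 in the main fit. Most or all of the 10 member calls were lost without either TGFβ/IL-34 sample, which leaves 1 in that group. With array weights or with these groups alone in the fit 35 passed. Of 13095 genes, 3558 and 2807 were called in those fits, against 587 in the main fit.

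FICZ without Jag1 changed no member past the threshold. The lowest adjusted p was 0.281 (limma), for Ifi44 at 178 and 213 with TGFβ/IL-34 and 1.02 and 35 with FICZ. An unadjusted p under 0.05 (limma) was found for 16 of 47 members, 16 of them lower, and for 17.4% of all genes. Of all genes 0.00764% were called lower and 0.0153% higher. The median over the members was −0.62 against −0.02, and groups did not overlap for 28 lower with FICZ (23.1% of all genes) and 2 higher (22.6%), Ifitm3 and Igtp. In AA47, where the description places replicate 1 of TGFβ/IL-34 and replicate 2 with FICZ, 33 of 47 were lower and the median was −0.27. The authors' sample sheet places that TGFβ/IL-34 sample in AA45 instead, with replicate 1 with FICZ, where 39 were lower and the median was −1.002. Without replicate 2 with FICZ, the arm holds only the library that stood apart and is assumed to vary like the other groups. Members passing in that fit are not counted here.

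Jag1 in the presence of FICZ lowered Mx2, from a mean of 128 ± 14.4 (SD, n = 2) to one of 18.3 ± 4.96 (SD, n = 3) (log2 fold change −2.77 with an SE of 0.460, adjusted p = 0.0174). It was the 1 member that fell (limma; 0.603% of all genes), and none rose (1.41%). The median was −0.40 against 0.05 over all genes, and 14 members lay lower without overlap (16.2% of all genes) and 1, Samd9l, higher (19.6%). In AA45 24 members were lower and 22 higher, in AA47 44 and 3. A replicate block pairs these samples by experiment code, but the TGFβ/IL-34 samples in the same fit by number only. With this block 3 members fell. No member passed without replicate 1 with both or without replicate 2 with both. Mx2 also lost its call without replicate 1 with FICZ, a fit that leaves 1 sample in that arm. The interaction compared the FICZ effect in Jag1 cultures with that in cultures lacking Jag1. No member passed (limma), and of all genes 1.17% were called higher and 0.221% lower. An unadjusted p under 0.05 (limma) was found for 6 of 47 members and for 18.8% of all genes. Gbp2 came nearest, with a difference of 1.63 log2 units (SE 0.431, adjusted p = 0.112), followed by Gbp5 with 0.96 (adjusted p = 0.133) and Usp18 with 1.35 (adjusted p = 0.19). Gbp2 and Gbp5 passed when the experiment code of the authors' sample sheet was a block, where 250 of 13095 genes passed.

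The members are next described by what they do, with values in every sample for those called and for the first 2 of each class, and shorter for others. Stat2 and Irf9 are parts of the ISRE-binding complex. Stat2 was at 7098 and 7235 with TGFβ/IL-34, 2435 and 5556 with FICZ, 5109, 5239.6 and 5898.5 with Jag1, 4899, 3514 and 4026 with both and 3182 in the Jag1 only sample. Irf9 stood at 1898.5 and 1893 with TGFβ/IL-34, 1246 and 1585 with FICZ, 1292, 1665 and 1460.1 with Jag1, 982.5, 1224 and 1269 with both and 1510.3 in the Jag1 only sample. Neither passed a test, and both were highest in the TGFβ/IL-34 samples. Irf7 varied more, at 342.5 and 412.5 with TGFβ/IL-34, 174 and 146 with FICZ, 117, 237 and 469.8 with Jag1, 44.2, 28.1 and 58.8 with both and 98.5 in the Jag1 only sample. Its 3 values with both were the lowest of all samples, while with Jag1 it reached from a value near that of the Jag1 only sample to the highest of all.

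Of the sensors, Ifih1 (MDA5) binds long viral RNA and was at 839 and 741.5 with TGFβ/IL-34, 355.5 and 606 with FICZ, 349, 624 and 916 with Jag1, 429.9, 552 and 553 with both and 786.5 in the Jag1 only sample. Dhx58 (LGP2), its cofactor, was at 586 and 484 with TGFβ/IL-34, 331 and 419.9 with FICZ, 318, 395 and 580.2 with Jag1, 238, 242 and 361 with both and 286 in the Jag1 only sample. Neither was called, and both had their highest Jag1 value in AA48. Zbp1, which senses Z-form nucleic acid and can trigger necroptosis, was at 242 and 226 with TGFβ/IL-34, 254 and 211 with FICZ, 41.1, 100.2 and 71.7 with Jag1, 144, 128 and 138 with both and 135 in the Jag1 only sample: all 3 Jag1 values were below all others, and those with both lay between. Ifi203 and Ifi204 belong to the cluster of DNA-sensing genes on chromosome 1. Ifi204 was at 207 and 318 with TGFβ/IL-34, 11.01 and 105 with FICZ, 102.5, 213 and 314 with Jag1, 4.45, 14.96 and 55.02 with both and 34.8 in the Jag1 only sample, with all samples with both under all with Jag1. Ifi203 ran from 2.84 in replicate 1 with FICZ to 488 in replicate 3 with Jag1 and passed no test.

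IFIT proteins bind RNA that lacks the host's cap marks. Ifit1 was at 40.1 and 37.04 with TGFβ/IL-34, 1.15 and 14.3 with FICZ, 5.69, 23.9 and 25.5 with Jag1, 4.66, 4.18 and 1.83 with both and 8.30 in the Jag1 only sample. Ifit2 stood at 80.4 and 95.5 with TGFβ/IL-34, 3.22 and 79.5 with FICZ, 8.49, 54.4 and 95 with Jag1, 26.2, 15.6 and 16.1 with both and 31.9 in the Jag1 only sample. Ifit3 was at 18.1 and 18.1 with TGFβ/IL-34, 0 and 6.24 with FICZ, 7.96, 10.4 and 8.87 with Jag1, 0, 2.10 and 0 with both and 4.15 in the Jag1 only sample, so that its values with both were at or under what 3 reads would give. For all 3 the mean was highest with TGFβ/IL-34, whose values did not overlap those with both, but Ifit1 and Ifit3 rested on few reads.

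The OAS family makes oligoadenylates that activate the RNA-degrading enzyme RNase L. Oas1a was at 626 and 645 with TGFβ/IL-34, 229 and 332 with FICZ, 185, 517 and 723 with Jag1, 92.2, 102.5 and 114 with both and 99.5 in the Jag1 only sample. Oas2 was at 30.4 and 72.1 with TGFβ/IL-34, 0 and 5.55 with FICZ, 2.01, 42.4 and 53.5 with Jag1, 1.64, 0.922 and 2.79 with both and 12.8 in the Jag1 only sample. Oas3, the longest of them, was at 1199 and 1027 with TGFβ/IL-34, 355 and 603 with FICZ, 255, 584 and 926 with Jag1, 169.9, 139.7 and 230.0 with both and 464 in the Jag1 only sample. Among the TGFβ/IL-34 groups, means of the 3 genes were lowest with both. There Oas1a kept within 92.2 to 114, while its Jag1 values spanned 185 to 723. The OAS-like genes went apart: Oasl1 was at 843 and 1040.3 with TGFβ/IL-34 and 606, 442 and 481 with Jag1, and Oasl2 was at 1125.5 and 1318 against 1663.5, 1699.7 and 2136, neither with a call. Eif2ak2 (PKR), a kinase that stops translation on viral RNA, was at 1321 and 1162 with TGFβ/IL-34, 402 and 1011.5 with FICZ, 595.5, 954 and 1239 with Jag1, 761, 574.5 and 628 with both and 474 in the Jag1 only sample. Adar, which edits RNA and so hides the cell's own from PKR and MDA5, was at 3597 and 3732 with TGFβ/IL-34, 2175 and 3034 with FICZ, 2066, 2791 and 2505 with Jag1, 2087, 2177.5 and 2322 with both and 2347.5 in the Jag1 only sample. Means of both were highest with TGFβ/IL-34, and neither passed a test.

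**Figure D4:**
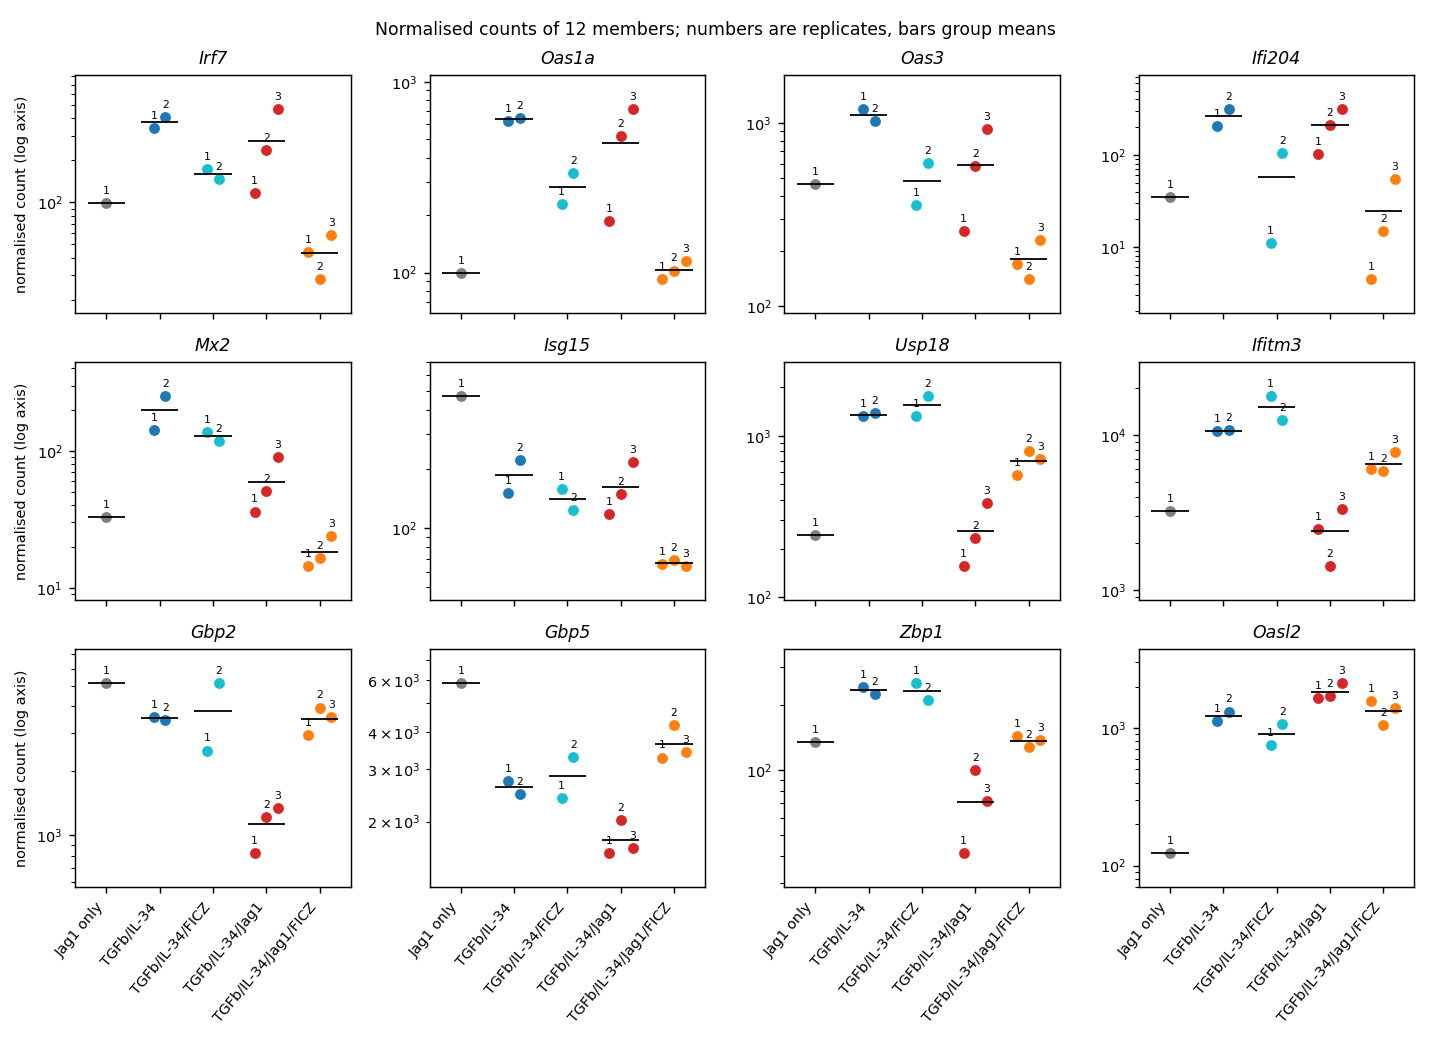
Normalised counts (log axes) of 12 members in the 5 groups (x axis). Points are samples with their replicate number and bars are group means. Means of Irf7, Oas1a, Oas3, Ifi204, Mx2 and Isg15 lie lowest with both additions among the TGFβ/IL-34 groups, while Usp18, Ifitm3, Gbp2, Gbp5 and Zbp1 lie lowest with Jag1.

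Mx proteins are GTPases that trap viral nucleocapsids, and whether these cells make working ones was not tested. Mx1 was at 1768 and 2602 with TGFβ/IL-34, 399.8 and 1785 with FICZ, 520.5, 1048 and 447.5 with Jag1, 527, 816 and 1201 with both and 1171 in the Jag1 only sample. Mx2 was at 143 and 253 with TGFβ/IL-34, 138 and 118 with FICZ, 36.1, 50.8 and 90.3 with Jag1, 14.4, 16.6 and 23.9 with both and 33.02 in the Jag1 only sample, and all samples with both were below all other samples. Ifitm3 was at 10509.8 and 10657 with TGFβ/IL-34, 17848 and 12399.5 with FICZ, 2468, 1424 and 3329.5 with Jag1, 5990.4, 5872 and 7698 with both and 3232 in the Jag1 only sample. Every Jag1 value was below every value with both, and those were below every sample without Jag1. Rsad2 (viperin) and Cmpk2, neighbours that act on nucleotides, passed no test. Cmpk2 was at 6.83, 5.20 and 4.90 with Jag1 and 17.7, 26.1 and 22.8 with both, without overlap and with few reads. Bst2 was at 12886 and 11428 with TGFβ/IL-34, 19326, 16993 and 17129 with Jag1 and 9846, 8266 and 9556 with both, where it lay below all other samples except replicate 2 with FICZ (9526).

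Isg15, the ubiquitin-like modifier, and Usp18, which removes it and also blocks the receptor, went apart. Isg15 was at 151 and 221 with TGFβ/IL-34, 158 and 123 with FICZ, 118.5, 149 and 216 with Jag1, 65.7, 68.9 and 64 with both and 471 in the Jag1 only sample. Its values with both were closely spaced and below all others. Usp18 was at 1318 and 1385 with TGFβ/IL-34, 1316 and 1769.7 with FICZ, 156, 234 and 381 with Jag1, 571, 809.6 and 721 with both and 243 in the Jag1 only sample. It was low in the Jag1 and Jag1 only samples and intermediate with both. The ligases Herc6 and Dtx3l stayed within 921 to 1361 and 1363 to 3693 over the TGFβ/IL-34 samples with no call, and Trim30a reached from 370.4 in replicate 1 with FICZ to 2902 in replicate 2 of TGFβ/IL-34. Parp9 and Parp14, which attach ADP-ribose to proteins, passed no test: Parp9 was at 1966 and 2024 with TGFβ/IL-34, 1100.5 and 2014 with FICZ, 1876, 1984 and 2213.5 with Jag1, 1559, 1692 and 1785 with both and 1752 in the Jag1 only sample. Parp14 was at 2511 and 2672 with TGFβ/IL-34, 957 and 2288 with FICZ, 1476, 2075 and 2268 with Jag1, 1688, 1869.5 and 1780.0 with both and 1893 in the Jag1 only sample, and replicate 1 with FICZ was the lowest sample for both.

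The GBP and IRG families are GTPases that attack the vacuoles of intracellular microbes. Gbp2 was at 3576 and 3451 with TGFβ/IL-34, 2482 and 5151 with FICZ, 819.7, 1208 and 1333.5 with Jag1, 2935, 3946 and 3548 with both and 5158.5 in the Jag1 only sample. Gbp3 was at 1475 and 1302 with TGFβ/IL-34, 736 and 2062 with FICZ, 394, 715 and 990.1 with Jag1, 761, 1269.8 and 1533 with both and 789 in the Jag1 only sample. Gbp5 was at 2741.5 and 2483 with TGFβ/IL-34, 2403.5 and 3294 with FICZ, 1564.5, 2021 and 1631 with Jag1, 3287, 4226 and 3424 with both and 5873 in the Jag1 only sample. For Gbp2 and Gbp5 the Jag1 samples were the lowest of all, and for Gbp5 every sample with both lay above both TGFβ/IL-34 samples. Values of the 3 GBP genes and of the IRG genes Igtp, Irgm1 and Ifi47 with Jag1 lay under those with TGFβ/IL-34 without overlap (22.8% of all genes did), and of these Gbp2 passed the test. Ifi47 was at 299 and 296.5 with TGFβ/IL-34, 220.2 and 314 with FICZ, 103, 173 and 203 with Jag1, 96.3, 126 and 115 with both and 167 in the Jag1 only sample. Igtp was at 96.9, 133 and 179 with Jag1 and 182, 282 and 185 with both, whereas Irgm1 and Ifi47 had negative log2 fold changes there (−0.63 and −0.45). So Gbp2, Gbp3, Gbp5 and Igtp had positive values on adding FICZ to Jag1, of which Gbp2 and Gbp5 passed.

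Among nuclear and Schlafen genes, which restrict viral translation and transcription, Slfn5 was at 1640.4 and 1567 with TGFβ/IL-34, 336 and 1291 with FICZ, 502, 1267 and 1824 with Jag1, 647, 831 and 999 with both and 820.5 in the Jag1 only sample. Slfn8 was at 220.0 and 270.5 with TGFβ/IL-34, 46.8 and 174 with FICZ, 44.9, 242 and 306 with Jag1, 26.7, 30.3 and 46.6 with both and 29.04 in the Jag1 only sample. Slfn8 was low with both and in the AA45 sample with Jag1, and high in the other Jag1 samples. Sp100, a component of PML nuclear bodies, was at 2209 and 2227 with TGFβ/IL-34, 1246 and 1682 with FICZ, 1625, 1977 and 2204 with Jag1, 1024, 1093 and 1245 with both and 1556.5 in the Jag1 only sample, and its values with both were the lowest of all samples. Phf11d was at 46.8, 81.3 and 84.1 with Jag1 and 24.2, 31.9 and 32.01 with both, with no call. In the remaining class, Ifi44 was at 178 and 213 with TGFβ/IL-34, 1.02 and 35 with FICZ, 22.2, 53.4 and 185 with Jag1, 6.62, 3.27 and 7.30 with both and 5.53 in the Jag1 only sample. Ifi35 was at 1126 and 1183 with TGFβ/IL-34, 2114.5 and 1169 with FICZ, 986, 1225 and 957 with Jag1, 950.2, 1004 and 958 with both and 1308 in the Jag1 only sample. Ifi44 was at a few reads with both and in replicate 1 with FICZ, and Ifi35 had its highest value in that same library. Ifi27l2a, a small mitochondrial protein, was at 273 and 303 with TGFβ/IL-34, 330.4 and 106 with FICZ, 20.1, 50.1 and 140.0 with Jag1, 21.9, 32.4 and 24.6 with both and 93.6 in the Jag1 only sample. Rtp4, a chaperone of membrane receptors, was at 19.7 and 46.4 with TGFβ/IL-34, 3.33 and 4.01 with FICZ, 11.3, 37.5 and 56.2 with Jag1, 0, 3.06 and 5.89 with both and 10.3 in the Jag1 only sample, so its fold changes rest on a few reads. Xaf1, linked to apoptosis, was at 326 and 379.5 with TGFβ/IL-34, 161 and 236 with FICZ, 193.5, 189 and 308 with Jag1, 58.3, 66.7 and 159 with both and 66.4 in the Jag1 only sample, and all its values with both lay under all with Jag1.

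The Jag1 only sample has no replicate and entered no test. It was set against the range of the other 10 samples. It lay above them for 6 members and below for 2 of 47, against 20.1% and 18.1% of all genes, so that in neither direction was the share of members larger than that of all genes. The 6 were Rsad2 (426 against 42.1 to 165), Isg15 (471 against 64.0 to 221), Herc6, Dtx3l, Gbp2 and Gbp5 (5873 against 1564.5 to 4226). The 2 below were Oasl1 and Oasl2, and Oasl2 was at 123 against 749.6 to 2136.

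The pathway upstream was read from 5 lists. None of 21 interferon genes passed the minimum: 19 were listed at 0 in all 11 samples, and Ifnk (up to 1.86) and Ifnl3 (up to 3.12) had single low values. All 6 receptor genes were expressed. Ifnlr1, the receptor chain for interferon lambda, was at 498 and 450.5 with TGFβ/IL-34, 158 and 182 with FICZ, 799, 623 and 528 with Jag1, 101, 76.2 and 76.5 with both and 55.03 in the Jag1 only sample, and it fell with FICZ on Jag1 cultures (log2 fold change −2.92 with an SE of 0.234, adjusted p = 4.27e-05) and with both against neither (log2 fold change −2.48, adjusted p = 0.00148). The other 5, Ifnar1 (2362 to 3628) and Ifnar2 among them, had no call. Of 11 kinases, STATs and IRFs, Irf1, the GAS-driven factor, rose with FICZ on Jag1 (1158, 1493 and 1176 against 3259, 3629 and 3092, log2 fold change 1.39 with an SE of 0.205, adjusted p = 0.0012). Irf4 fell in that comparison (log2 fold change −0.72, adjusted p = 0.0198), and Stat3 rose with Jag1 in the presence of FICZ (log2 fold change 1.15, adjusted p = 0.026).

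Of 8 negative regulators, Socs1, which blocks the receptor kinases, was at 3897 and 4465 with TGFβ/IL-34, 3871 and 4684 with FICZ, 2188.5, 2663 and 2485 with Jag1, 4189.6, 4631 and 4735 with both and 2364 in the Jag1 only sample. It fell with Jag1 (log2 fold change −0.77 with an SE of 0.163, adjusted p = 0.019) and rose when FICZ was added to Jag1 (log2 fold change 0.89, adjusted p = 0.00213), the same directions as Usp18. Socs3, an inhibitor of IL-6-type receptors, was at 10760.4 and 11827.5 with TGFβ/IL-34, 11162 and 7067 with FICZ, 30471, 24878 and 29329 with Jag1, 7492, 6431 and 10599.8 with both and 3971.5 in the Jag1 only sample and went the opposite way, with log2 fold changes of 1.32 (adjusted p = 0.0127) and −1.81 (adjusted p = 0.000496). Ptpn1 fell with FICZ on Jag1 (−0.73). Of 20 sensing adaptors and kinases tested, Unc93b1, the chaperone of endosomal Toll-like receptors, was at 8219 and 8223 with TGFβ/IL-34, 9762 and 8712 with FICZ, 3802, 3611 and 3354 with Jag1, 5612, 5006 and 5558.5 with both and 3519 in the Jag1 only sample and was called in 4 of the 6 comparisons, lower with Jag1 and higher with FICZ on Jag1. Tlr7, one of its clients, was at 16.8 and 37.04 with TGFβ/IL-34, 30.6 and 31.1 with FICZ, 2.22, 6.46 and 0 with Jag1, 30.6, 34.9 and 78.4 with both and 61.7 in the Jag1 only sample, and it fell with Jag1 (log2 fold change −3.17) and rose with FICZ on Jag1 (3.96). Traf3 rose (1.21) and Mavs fell (−0.53) in the latter comparison.

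A further list of 89 interferon-stimulated genes, of which 81 were tested, was read beside the members. With Jag1, 10 fell (3.96% of all genes) and none rose (2.64%), with a median of −0.39 against −0.0041 over all genes, Ifi213 among them (−3.87). Tgtp1, an IRG GTPase, was at 130.0 and 219 with TGFβ/IL-34 and 5.69, 21.9 and 4.90 with Jag1 (log2 fold change −4.14 with an SE of 0.652, adjusted p = 0.00455). Ly6a (Sca-1) was at 7797 and 8879 against 86.5, 643 and 1735 (−4.17), Ifitm6 at 573 and 640.0 against 49.2, 24.4 and 86.99 (−3.65), and the necroptosis effector Mlkl at 80.4 and 126 against 11.8, 18.3 and 12.6 (−2.76). With FICZ on Jag1, 13 rose (10.9% of all genes) and 11 fell (6.71%), with a median of −0.06 against −0.01. Risers were Ms4a4c, Ifitm6, Mlkl, Tgtp1 and the nuclear body gene Pml (log2 fold changes 3.81, 3.81, 2.78, 2.36 and 1.85). Among those that fell, Ifi207, Oas1g, Ifi211 and Phf11b are relatives of members (log2 fold changes −3.87, −3.57, −2.40 and −2.35), with Oas1g at 44.1, 142 and 161 with Jag1 and 3.61, 7.16 and 15.7 with both. With both against neither, 10 fell (1.37% of all genes) and 1, Gbp8, rose (1.32; 3.12%), with a median of −0.24 against 0.01. Ifi213, Oas1g, Ifi207, Ddx60 and Phf11b fell most (−4.51, −4.47, −4.19, −3.61 and −3.29). Lgals3bp, a secreted glycoprotein, was at 23091 and 23495 with TGFβ/IL-34, 15386 and 14988 with FICZ, 9535, 12720.3 and 13777 with Jag1, 3714, 2420.3 and 4595 with both and 1301 in the Jag1 only sample and fell with Jag1 in the presence of FICZ (log2 fold change −2.13 with an SE of 0.260, adjusted p = 0.00618). FICZ without Jag1 called none of the 81 (median −0.24). With Jag1 in the presence of FICZ, Gbp9 rose (1.56), 1 of 81 against 1.41% of all genes. Oas1g fell there too (−3.13), which with Lgals3bp made 2 of 81 against 0.603%. In the interaction Ms4a4c and Pml passed with 5.96 and 2.48 log2 units, 2 of 81 against 1.17% of all genes called higher.

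Markers of other cell types moved with some of these comparisons, and their part in the results was not tested. In bulk samples, fewer cells of a type and less RNA per cell cannot be told apart. The summed level of 6 stroma markers was 7.58 to 21.1 with TGFβ/IL-34, 23.4 to 37.99 with FICZ, 301 to 819.9 with Jag1, 587 to 3763 with both and 331 in the Jag1 only sample, and Col1a2 was at 0 in the 4 samples without Jag1. The sum of 4 granulocyte markers was 223 to 936.5, 1736 to 2643, 69.2 to 110.2 and 3942 to 5765 in the same order and 246 in the Jag1 only sample, and with FICZ on Jag1 3 of the 4 rose. The sum of 4 Langerhans cell markers was 133459 to 135410.3, 61749 to 81739, 289893 to 299832 and 46173 to 105365, and 15159 in the Jag1 only sample, and with FICZ on Jag1 3 of the 4 fell. Of 4 markers of plasmacytoid dendritic cells, which make much type I interferon, Siglech was at 30.01, 158 and 161 with Jag1, with the low value in AA45, and at 0 to 5.49 elsewhere, while Bst2 is itself a member and makes up most of the sum (12146 to 13486, 10160.4 to 32713, 17863 to 20087 and 9062 to 10745, Jag1 only 13363.5). The sum of 4 macrophage markers was 15936 to 17270.1, 7651 to 15581, 9816 to 17795 and 8387 to 11587 (Jag1 only 4792). Its genes went apart: with Jag1, C1qa rose (log2 fold change 4.01) while Fcgr1 (−3.14) and Adgre1 (−1.13) fell, and with FICZ on Jag1 C1qa fell (−3.28). With both against neither, Fcgr1 (−4.00) and Mrc1 (−5.71) fell. The 3 leukocyte markers summed to 15051 to 34545 over all samples. The 3 T, NK and B cell markers were low, summing to 0 to 47.6 over all samples. Their sums were 0 to 8.50 with Jag1 and 32.7 to 47.6 with both. Nkg7, the 1 of them tested, rose with FICZ on Jag1 (log2 fold change 3.60) and with both against neither (3.35).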

How the data were processed

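Bulk RNA-seq of 11 samples in 5 groups was analysed. Transcripts of the Ensembl GRCm39 model had been quantified by the authors (salmon, tximport), and DESeq2-normalised counts, a signal and not raw counts, were deposited. The experiment codes came from the labels and from a sample table of the authors, which differ for 1 sample. Values were not whole reads: 51.1% to 57.9% of low values lay within 0.1 of a whole step, so no count model was used. Genes with at least 10 in at least 2 samples were kept. Values were analysed as log2(value + 1), and fold changes are on that scale, which understates those of low genes. Group means of all 11 samples were fitted in limma 3.58.1 (R 4.3.3; 6 residual degrees of freedom), with a variance trend, two-sided tests, Benjamini-Hochberg adjustment over 13095 genes per comparison and a threshold of 0.05. The fit was tested on simulated data. The Jag1 only sample entered no comparison.

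The members, lists and comparisons were chosen with earlier results of these data known. Members named with all values were those called, up to 6 in each direction per comparison by size of change, and the first 2 of each of 11 role classes; of other lists, up to 5 called in each direction. Others were named after their values were seen. Alternatives were quantile normalisation, pseudocounts of 0.5 and 4, no filter, only the groups compared, array weights, blocks by replicate number, experiment code or flow cell, and leaving out each sample. Same-numbered samples with Jag1 and with both carried 1 experiment code in the labels, and their deviations from the group means correlated across genes (r of 0.153, 0.122 and 0.166), so those numbers pair samples. Same-numbered samples with FICZ and with both also carried 1 code each (r of 0.0591 and 0.0578), and by the labels these pair too. Protein sequences were not used here, and identities are of coding sequences. Promoters and positions are from GRCm39 with GENCODE vM39.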

Additional observations from a re-analysis of the deposited data

Results flagged for a closer look

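The Jag1 only sample entered no comparison, and 6 members stood in it above all 10 other samples. Rsad2 (viperin) was at 426 normalised counts, 2.58-fold over the highest other sample, and Isg15 at 471, 2.13-fold. Herc6 was at 2127 (1.56-fold) and Dtx3l at 4085 (1.11-fold). The GTPases Gbp2 and Gbp5 were at 5158.5 and 5873. With 1 sample these differences have no replicate check, and 20.1% of all genes stood above all others there. No group held 4 or more samples, so no test for an outlying sample within a group was made.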

How the results depend on the processing

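Of 30 member changes past the threshold, 8 stayed past it under every alternative; over 464 recomputations 359 kept their call, 105 lost it and 0 changed direction. Jag1 without FICZ called 5 members, 18 with array weights, 8 with the sample sheet's experiment code as block (chosen after seeing the data) and 2 to 6 leaving out 1 sample. Jag1 and FICZ together called 10, 18 after quantile normalisation, 6 without a filter, 35 with only the groups compared, 35 with array weights, 18 with the replicate block, 17 with the sheet code block and 0 to 7 leaving out 1 sample. FICZ with Jag1 called 14, 27 with array weights and 6 to 15 leaving out 1 sample. The replicate block pairs samples there, but the fit also holds TGFβ/IL-34 samples, whose numbers do not follow the labels' codes. With this block 16 were called. Array weights also called more of all genes in these 3 comparisons, at 2627 against 864, 3558 against 587 and 4123 against 2312. Leaving out 1 sample with Jag1 called fewer of all genes for Jag1 without FICZ, at 568 to 713. For Jag1 and FICZ together, leaving out 1 sample with both called 182 to 305. For FICZ with Jag1, leaving out 1 sample of either group called 1389 to 1821. Only the groups compared gave 2807 of all genes for Jag1 and FICZ together. Jag1 with FICZ called 1, 3 after quantile normalisation, and 0 with only the groups compared or with array weights. Blocks by replicate, description code and sheet code gave 3, 2 and 2. Without replicate 1 or replicate 2 with both it called 0, and fits leaving 1 sample with FICZ are not counted. FICZ without Jag1 called 0, and 0 to 24 leaving out 1 sample. Each of these fits leaves 1 sample in a group, and the upper end came from the fit without replicate 2 with FICZ. Only the library that stood apart is left in that arm, and calls rose among all genes too. That fit therefore cannot show whether FICZ changed the members, and no conclusion is drawn from it. The interaction called 0, and 2 with the sheet code block. The replicate block left the counts of Jag1 without FICZ (5), FICZ without Jag1 (0) and the interaction (0) as they were. Replicate numbers went with shared experiment codes in FICZ with Jag1 and in Jag1 with FICZ; in comparisons with TGFβ/IL-34 the samples share only a number. Causes were not tested. Levels per sample were also recomputed, giving 33 values. As medians over the members, the TGFβ/IL-34 samples were at 0.71 and 0.75, below their means of 0.81 and 0.96. Over the 11 samples, medians ran from −0.53 to 0.75. Means ran from −0.66 to 0.88 with a pseudocount of 4 and from −0.865 to 0.95 after quantile normalisation. Groups of 2 and 3 samples and members at a few reads (Ifit1, Ifit3, Oas2, Rtp4, Cmpk2) limit what could be detected.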
